A study of Homo sapiens with 18 samples.

Results

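Wild-type NIKS keratinocytes kept for 12 h in interferon alpha were compared with the same line left untreated. Genes outside a list of classical interferon-stimulated genes and a list of class I antigen presentation genes are described here by function. The lists need not be complete, so a gene outside them may still be a known interferon target. The 2 groups compared hold 6 of the 18 RNA sequencing libraries of the study, 3 in each group, chosen by their labels for genotype and time. NIKS is a line of human skin keratinocytes that became immortal in culture and still differentiates. Both groups were wild type for SP100, a nuclear body protein that the study knocked out in a second line. The treated cells received human interferon alpha 2a at 25 ng/mL for 12 h, and the untreated cells are labelled 0 h. A second pair of groups, 3 untreated and 3 treated libraries of the SP100 knockout line at the same dose and time, shares no library with the first and is used beside it. A wild-type group of 3 libraries at 48 h shows what a level did later. All cells grew on lethally irradiated J2/3T3 mouse fibroblasts in a serum medium with hydrocortisone, cholera toxin, epidermal growth factor, insulin and adenine. Each genotype was 1 line by its column names. No untreated library at 12 h was analysed here, so the interferon and the hours in culture cannot be told apart.

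Type I interferon binds a receptor made of IFNAR1 and IFNAR2. The kinases JAK1 and TYK2 then activate latent transcription factors, which join IRF9 and bind interferon-stimulated response elements near antiviral genes. Keratinocytes form the outer barrier of the skin: basal cells divide on the basement membrane, and their daughters change keratins, build a cornified envelope and die. Interferon is known to slow growth and to change metabolism, inflammation and antigen display in epithelial cells, besides inducing antiviral proteins.

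Values are RPKM (with SD and n = 3 where a mean is given), which scale reads to gene length and library size. Changes are differences of log2(RPKM + 1) with their standard error, so 1 on this scale is 2-fold and the change of genes near 0 RPKM is understated. The standard errors and p-values rest on the spread within groups over all 18 libraries, not on the 6 compared alone. A gene is said to have risen or fallen where limma's Benjamini-Hochberg adjusted p over the 13280 genes tested was under 0.05. Relative depth, read from low values, ranged over 1.27-fold in the 6 libraries (0.853 to 1.085 of the mean), and the number of reads is unknown. All 15 keratinocyte markers had values, and their sum was 21550 to 22630 RPKM untreated and 24360 to 25350 RPKM at 12 h. Of 18 fibroblast markers 9 had values, 4 of them too low to test, with a sum of 395.4 to 410.7 RPKM untreated and 326.5 to 333.6 RPKM at 12 h that was mostly vimentin (VIM). Of 18 leukocyte markers CD3D, CD14, CD68 and ITGAM had values. Their sum was 24.51 to 26.27 RPKM untreated and 54.35 to 59.5 RPKM at 12 h, mostly through CD68, a lysosomal membrane protein, while CD14 fell and CD3D and ITGAM were too low to test. Of 9 melanocyte markers PMEL and MITF had values, summing to at most 2.34 RPKM, and no endothelial marker had one. The part of these markers in the results was not tested. RNAs encoded in mitochondria made up 6.27 to 6.8% of the RPKM sum untreated and 4.27 to 6.19% at 12 h. In such bulk samples fewer cells of a type and less RNA per cell cannot be told apart.

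At 12 h, 2005 genes (15.1%) were higher and 3959 (29.8%) lower than in untreated cells. Changes of 2-fold or more were seen in 218 genes (1.64%) that rose and 122 (0.919%) that fell. The median change of all genes tested was -0.086. With median-of-ratios scaling, which centres the libraries on their typical gene, 2892 genes (21.8%) were higher and 2717 (20.5%) lower, with 254 (1.91%) and 94 (0.708%) of them by 2-fold or more. The function lists below are therefore given with counts under both scalings, to be read against these shares. The classical interferon genes and the class I antigen presentation genes held 136 tested genes, of which 129 rose, 108 of them at least 2-fold, and IFI27L2 and APOBEC3C fell. These lists made up 0.65 to 0.66% of the RPKM sum in untreated libraries and 3.14 to 3.17% at 12 h. The 3 classical genes with the largest change were IFI27 at 8.81 ± 0.18, MX1 at 8.79 ± 0.045 and IFI6 at 8.04 ± 0.072. Outside these lists 110 genes rose at least 2-fold, and all 122 genes that fell at least 2-fold lay outside them. Of the 110, 56 were under 2 RPKM in untreated cells. To be tested a gene had to reach 1 RPKM in 3 or more of the 18 libraries. Genes under 1 RPKM in every untreated library met this only through treated ones, so they could hardly be called lower.

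The largest rise outside the lists was that of MMP13, a collagenase that cuts fibrillar collagen. MMP13 read 0.08, 0.1 and 0.12 RPKM in the 3 untreated libraries and 22.4, 24.6 and 23.7 RPKM in the 3 treated ones. Its change was 4.48 ± 0.10 (adjusted p = 1.24e-15), and at 48 h it had dropped to 5.25, 3.74 and 4.23 RPKM. HSH2D, an adaptor with an SH2 domain best known from blood cells, went from 0.08, 0.14 and 0.06 to 17.2, 18.04 and 21.5 RPKM, a change of 4.18 ± 0.12 (adjusted p = 3.13e-14). It was still at 12.6, 13.3 and 11.1 RPKM at 48 h. SLC15A3, a lysosomal transporter of histidine and small peptides, was at 0, 0.17 and 0 RPKM untreated and 11.8, 12.4 and 12.5 RPKM at 12 h, a change of 3.65 ± 0.13 (adjusted p = 8.64e-13). GMPR, the reductase that turns GMP into IMP in the purine pathway, went from 0.42, 0.28 and 0.59 to 15.3, 16.7 and 16.1 RPKM (3.58 ± 0.10, adjusted p = 2.79e-14). ETV7, a transcription factor of the ETS family, went from 0.37, 0.2 and 0.3 to 11.7, 11.5 and 12.8 RPKM (3.33 ± 0.093, adjusted p = 4.43e-14). All 5 of these genes were under 1 RPKM in every untreated library and over 10 RPKM in every treated one.

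Other leading rises held surface, signalling and cytoskeletal genes. THEMIS2, a signalling adaptor of immune cells, read 2.23, 1.88 and 1.6 RPKM untreated and 14.5, 14.7 and 13.9 RPKM at 12 h (2.41 ± 0.12, adjusted p = 1.97e-10). PLEKHA4, a pleckstrin homology domain protein, read 3.81, 3.86 and 3.51 RPKM untreated and 23.7, 21.3 and 24.6 RPKM treated (2.35 ± 0.088, adjusted p = 2.26e-12). MAP2, a microtubule-associated protein known from neuronal dendrites, read 4.02, 3.58 and 4.16 RPKM untreated and 20.3, 22.03 and 21.6 RPKM treated (2.18 ± 0.077, adjusted p = 1.13e-12). The leading rises and falls were taken from genes whose groups did not overlap, so their separation was set by that choice. CCNA1, the cyclin A known from the germ line, read 5.73, 4.68 and 4.51 RPKM untreated and 24.1, 24.5 and 26.04 RPKM treated (2.12 ± 0.082, adjusted p = 4.23e-12). ODF3B, named for the outer dense fibres of sperm tails, read 0.4, 0.56 and 0.29 RPKM untreated and 5.46, 4.29 and 7.19 RPKM treated (2.21 ± 0.17, adjusted p = 6.69e-08). ODF3B was as high at 48 h, at 5.36, 4.62 and 6.78 RPKM, while CCNA1 was at 9.21, 8.92 and 8.86 RPKM.

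**Figure D1:**
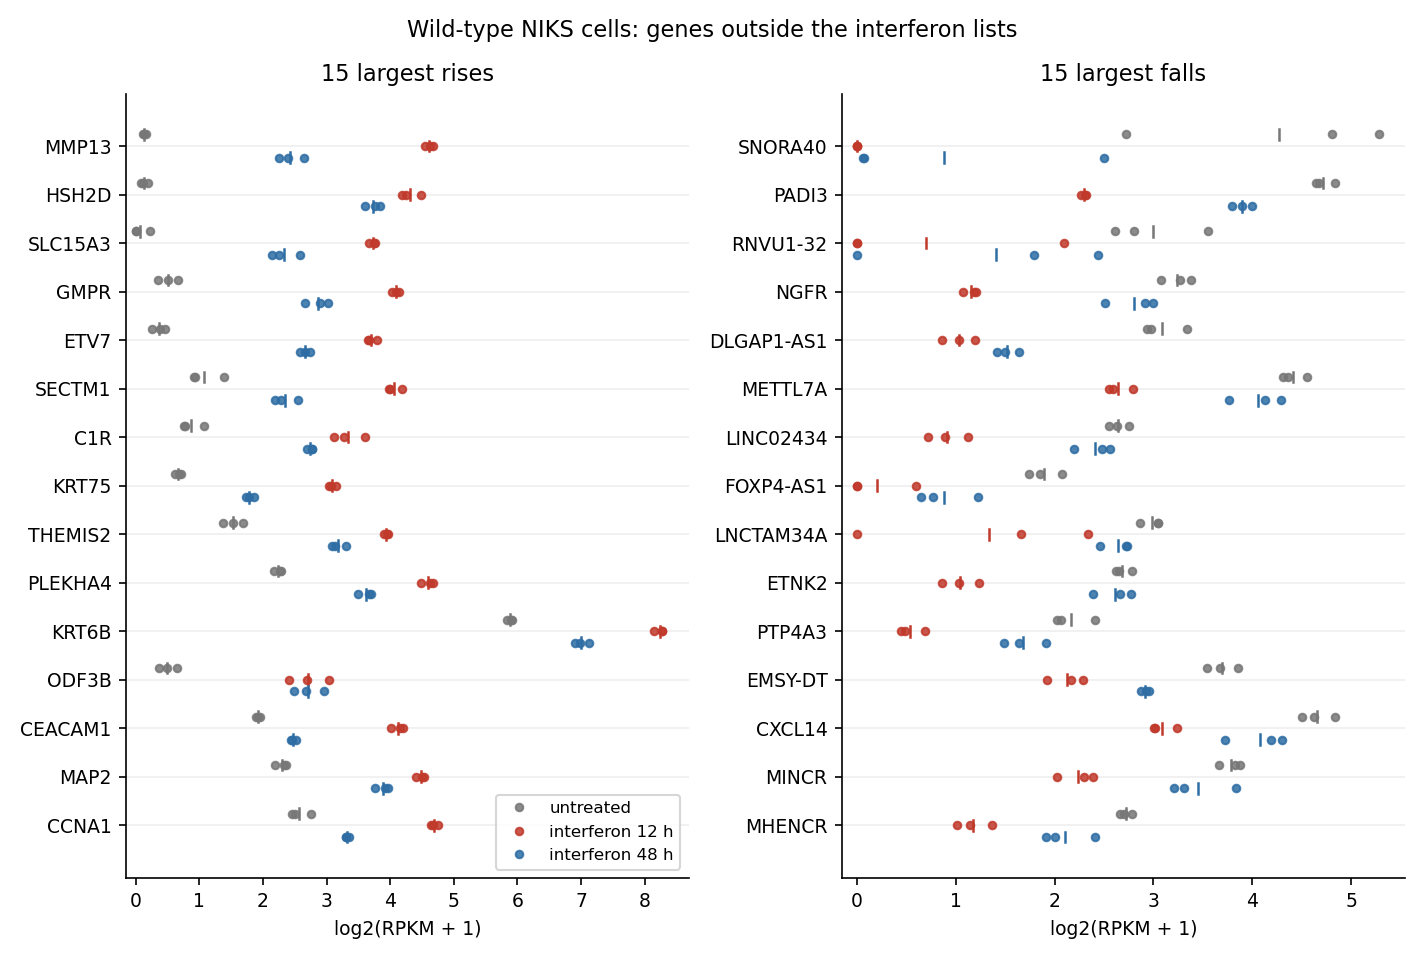
Each point is 1 library and each short bar the mean of 3, on a log2(RPKM + 1) axis, for the 15 largest rises and the 15 largest falls outside the interferon lists in wild-type cells (grey untreated, red 12 h, blue 48 h). MMP13 moves from about 0.1 RPKM untreated to 22.4 to 24.6 RPKM at 12 h, and PADI3 moves from 23.98 to 27.54 RPKM to 3.8 to 3.99 RPKM.

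SECTM1 and CEACAM1 were the leading rises whose promoter entries held the core of the interferon-stimulated response element, GAAA and GAAA with any 2 bases between. Of the 15 leading rises 8 had an entry in RefSeq's promoter table (GRCh38.p14, from 250 bases before to 50 after the gene start), and these 2 held the motif on either strand. SECTM1, a secreted and transmembrane ligand of the T cell protein CD7, read 1.63, 0.89 and 0.9 RPKM untreated and 17.2, 15.02 and 14.8 RPKM at 12 h (2.98 ± 0.16, adjusted p = 6.38e-10). CEACAM1, a cell adhesion receptor, read 2.81, 2.89 and 2.7 RPKM untreated and 15.2, 17.4 and 16.8 RPKM treated (2.20 ± 0.15, adjusted p = 1.29e-08). The SECTM1 promoter lies at chr17:82333717-82334016 on the minus strand, with the match starting 3 bases before the gene start. The CEACAM1 promoter lies at chr19:42528432-42528731 on the minus strand, with the match starting 116 bases before the start. DLGAP1-AS1, at chr18:3593864-3594163 on the plus strand, is printed beside them as the largest fall with an entry, and has no match in this window. Capitals mark the match, which in SECTM1 is on the opposite strand. In both genes the core is followed by a G on the strand of the match. A longer form, the core followed by a C, stood in 0 of the 8 entries of leading rises.
SECTM1: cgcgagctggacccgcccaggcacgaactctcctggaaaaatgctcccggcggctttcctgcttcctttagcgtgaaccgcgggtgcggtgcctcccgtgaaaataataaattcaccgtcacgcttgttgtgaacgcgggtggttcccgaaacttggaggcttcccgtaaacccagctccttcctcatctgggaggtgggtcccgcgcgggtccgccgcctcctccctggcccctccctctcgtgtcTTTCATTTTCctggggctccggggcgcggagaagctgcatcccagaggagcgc
CEACAM1: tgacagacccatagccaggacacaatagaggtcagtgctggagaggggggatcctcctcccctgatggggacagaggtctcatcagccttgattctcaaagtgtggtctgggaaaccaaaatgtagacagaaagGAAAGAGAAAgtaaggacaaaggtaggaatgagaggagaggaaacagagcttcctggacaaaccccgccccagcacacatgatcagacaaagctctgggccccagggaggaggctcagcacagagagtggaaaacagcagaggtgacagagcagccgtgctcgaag
DLGAP1-AS1: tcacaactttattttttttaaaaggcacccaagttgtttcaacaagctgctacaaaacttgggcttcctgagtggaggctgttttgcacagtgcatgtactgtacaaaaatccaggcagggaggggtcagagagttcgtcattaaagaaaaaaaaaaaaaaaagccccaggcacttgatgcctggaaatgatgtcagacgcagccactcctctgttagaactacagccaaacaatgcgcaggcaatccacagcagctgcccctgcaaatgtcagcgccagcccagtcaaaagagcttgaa

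Across the 9653 tested genes with an entry, 3.94% held that core. Among interferon list genes that rose at least 2-fold it was 52 of 82 (63.4%). Outside the lists it was 8 of 63 (12.7%) of the genes that rose at least 2-fold and 2 of 70 (2.86%) of those that fell at least 2-fold. The 8 were SECTM1, GCA, CEACAM1, PSMB8-AS1, LAP3, CFB, IL1RN and SHISA5. The longer form, with a C after the core, stood in 1.12% of all entries and 31 of 82 (37.8%) of the interferon list rises. Outside the lists the longer form stood in 3 of 63 (4.76%) of the rises and 0 of 70 of the falls. The gamma-activated type of motif, TTCNNNGAA, stood in 8.27% of all entries, 25.6% of the interferon list rises, 9.52% of the other rises and 11.4% of the falls. It reads the same on both strands and can overlap the other motif.

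The falls were led by an epidermal enzyme, a neurotrophin receptor and non-coding RNAs. PADI3, a peptidylarginine deiminase of the hair follicle and upper epidermis, read 27.5, 23.98 and 24.6 RPKM untreated and 3.8, 3.94 and 3.99 RPKM at 12 h, a change of -2.42 ± 0.078 (adjusted p = 2.75e-13). NGFR, the p75 neurotrophin receptor, read 9.43, 7.42 and 8.66 RPKM untreated and 1.11, 1.27 and 1.31 RPKM treated (-2.09 ± 0.13, adjusted p = 2.68e-09). METTL7A, a methyltransferase-like protein of the endoplasmic reticulum and lipid droplets, read 22.5, 18.8 and 19.6 RPKM untreated and 5.92, 4.84 and 5.02 RPKM treated (-1.77 ± 0.13, adjusted p = 2.35e-08). At 48 h the means of these 3 genes were 13.9 ± 1.01, 6.07 ± 1.23 and 15.9 ± 3.01 RPKM. ETNK2, an ethanolamine kinase of phospholipid synthesis, read 5.89, 5.28 and 5.17 RPKM untreated and 1.36, 1.04 and 0.82 RPKM treated (-1.64 ± 0.14, adjusted p = 1.71e-07). PTP4A3, a phosphatase of the PRL group, read 3.08, 3.19 and 4.31 RPKM untreated and 0.61, 0.4 and 0.36 RPKM treated (-1.63 ± 0.15, adjusted p = 2.78e-07).

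SNORA40, a small nucleolar RNA, was at 37.9, 26.98 and 5.59 RPKM untreated and listed at 0 in all 3 treated libraries, so no fold is given. Its untreated values were widely spread, and in the knockout line its change of -0.21 was not called (adjusted p = 0.877). RNVU1-32, a variant U1 small nuclear RNA of a multicopy family, read 6, 10.8 and 5.12 RPKM untreated and 0, 0 and 3.27 RPKM treated (-2.29 ± 0.65, adjusted p = 0.00943). RNAs of both classes carry no poly(A) tail and are poorly sampled by mRNA libraries, and reads of near-identical copies could have been split. LNCTAM34A was likewise uneven, at 6.27, 7.28 and 7.24 RPKM untreated and 4.07, 2.17 and 0 RPKM treated (-1.65 ± 0.42, adjusted p = 0.00478).

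The remaining leading falls, apart from the chemokine CXCL14, were long non-coding RNAs. DLGAP1-AS1 read 9.13, 6.66 and 6.85 RPKM untreated and 1.04, 0.82 and 1.29 RPKM at 12 h (-2.05 ± 0.23, adjusted p = 3.47e-06). LINC02434 read 5.2, 5.72 and 4.87 RPKM untreated and 1.18, 0.86 and 0.64 RPKM treated (-1.73 ± 0.12, adjusted p = 1.57e-08). FOXP4-AS1 read 3.22, 2.6 and 2.34 RPKM untreated and 0.51, 0 and 0 RPKM treated (-1.69 ± 0.27, adjusted p = 9.35e-05). All 3 were under 2 RPKM in every treated library. EMSY-DT, transcribed away from the EMSY gene, read 11.8, 10.7 and 13.5 RPKM untreated and 2.78, 3.5 and 3.87 RPKM treated (-1.57 ± 0.13, adjusted p = 9.19e-08). MINCR fell from 12.8 ± 1.01 to 3.73 ± 0.60 RPKM and MHENCR from 5.59 ± 0.28 to 1.27 ± 0.28 RPKM. The kit keeps the strand, but whether the counting used it is not given in the sources used here, so reads of an antisense RNA and its partner gene may not be separated.

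By gene type, 813 long non-coding RNAs were tested, of which 38 (4.67%) rose and 240 (29.5%) fell. Among 11360 protein-coding genes 16.6% rose and 31.5% fell. After median-of-ratios scaling the order of the shares that fell turned, with 24.4% of long non-coding RNAs and 21.3% of protein-coding genes lower and 5.9% and 24.1% higher. At least 2-fold, 3.94% of the long non-coding RNAs and 0.713% of the protein-coding genes fell. The median change was -0.220 for long non-coding RNAs and -0.081 for protein-coding genes, and -0.160 and 0.005 after median-of-ratios scaling. Long non-coding RNAs are expressed at lower levels, so the counts were also read within ranges of untreated level. The same untreated libraries set the range and the change, so a value high there by chance leans towards a fall. Genes under 1 RPKM untreated are in no range. At 10 RPKM or more, 59 of 109 long non-coding RNAs (54.1%) fell against 34.9% of 6978 protein-coding genes. At 3 to 10 RPKM it was 44.1% of 195 against 29.4% of 2790, and at 1 to 3 RPKM 26.7% of 329 against 24.1% of 1281. After scaling these shares were 45.9% against 22.4%, 37.9% against 21.5% and 21% against 19%. In the knockout line the median change of the 813 was -0.213. Of the 414 RNAs whose symbols name them as antisense, intergenic or divergent, 17 rose and 147 fell (21 and 117 after scaling). The 4 largest rises among them were PSMB8-AS1 (1.86 ± 0.14) beside an immunoproteasome gene, IRF1-AS1 (1.73 ± 0.16) beside IRF1, LINC02551 (1.22 ± 0.16) and LINC02574. The last was listed at 0 in every untreated library and read 1.55, 2.45 and 0.97 RPKM at 12 h. LINC02574, LINC02551 and IRF1-AS1 were under 1 RPKM in every untreated library of both lines. They were tested only because of treated libraries and could hardly have been called lower.

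**Figure D2:**
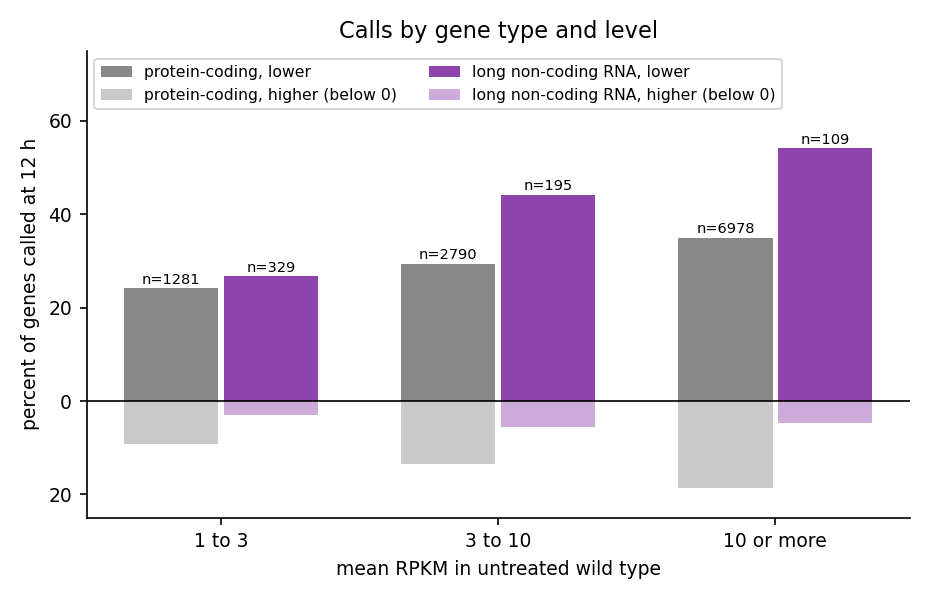
Bars above 0 give the percent of genes that fell and bars below 0 the percent that rose at 12 h in wild-type cells, for protein-coding genes (grey) and long non-coding RNAs (purple) in 3 ranges of untreated RPKM, with the number tested over each bar. The share that fell is larger for long non-coding RNAs in each range. It goes from 26.7% against 24.1% at 1 to 3 RPKM to 54.1% against 34.9% at 10 RPKM or more. Genes under 1 RPKM untreated are not shown, and the ranges rest on the same untreated libraries as the change.

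Complement and coagulation genes moved in both directions. Of 27 tested complement and coagulation genes 12 rose and 6 fell (14 and 5 after scaling), with a median of 0.16. C1R, a serine protease of the first complement component, read 1.11, 0.7 and 0.71 RPKM untreated and 11.2, 7.64 and 8.72 RPKM at 12 h (2.46 ± 0.15, adjusted p = 3.54e-09). Its partner protease C1S went from 0.21, 0.84 and 0.06 to 2.68, 2.55 and 2.57 RPKM (1.43 ± 0.17, adjusted p = 4.35e-06). CFB, factor B of the alternative pathway, went from 0.88, 0.3 and 0.28 to 4.74, 2.95 and 3.69 RPKM (1.70 ± 0.20, adjusted p = 7.53e-06). SERPING1, the inhibitor of C1R and C1S, was picked after its values were seen because it was the fifth gene past 2-fold, and went from 0.38, 0.07 and 0.12 to 1.2, 1.59 and 1.72 RPKM (1.08 ± 0.15, adjusted p = 2.8e-05). C1S, CFB and SERPING1 were at low levels even when induced, at 4.74 RPKM or less in every treated library. PLAUR, the urokinase receptor, was the abundant one, at 13.3, 15.3 and 13.8 RPKM untreated and 32.4, 35.4 and 33.97 RPKM treated (1.21 ± 0.066, adjusted p = 5.35e-10). F2R, a thrombin receptor, fell from 16.9 ± 0.67 to 6.33 ± 0.30 RPKM (-1.29 ± 0.074), and PLAT, tissue plasminogen activator, from 12.7 ± 1.47 to 5.197 ± 0.64 RPKM (-1.15 ± 0.10). Of 25 matrix proteases and inhibitors, MMP13 among them, 14 rose and 6 fell (16 and 4 after scaling). MMP2, a gelatinase, fell from 17.3 ± 0.86 to 11.7 ± 1.02 RPKM (-0.53 ± 0.13).

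Among 20 cytokines and chemokines outside the CXCR3 ligands, 9 rose and 4 fell (10 and 4 after scaling). The list median was 0.28, and -0.219 over members with a mean of at least 5 RPKM. IL1RN, the antagonist of the interleukin 1 receptor, read 8.35, 6.7 and 6.99 RPKM untreated and 19.5, 20.5 and 20.04 RPKM at 12 h (1.34 ± 0.084, adjusted p = 3.51e-09). CXCL3, a neutrophil chemokine, read 0.76, 1.06 and 2.65 RPKM untreated and 2.93, 3.7 and 5.51 RPKM treated (1.06 ± 0.24, adjusted p = 0.00199). IL32, a cytokine of inflamed epithelium, read 0.15, 0.89 and 0.37 RPKM untreated and 1.85, 1.79 and 2.04 RPKM treated (1.01 ± 0.16, adjusted p = 9.35e-05). CXCL14, a chemokine that skin makes constitutively, moved the other way, from 27.7, 21.7 and 23.7 to 8.45, 7.04 and 7.11 RPKM (-1.57 ± 0.13, adjusted p = 8.57e-08). Of 39 receptors and signal transducers 7 (17.9%) rose and 13 (33.3%) fell, against 15.1% and 29.8% of all genes tested (8 and 7 after scaling). IL1R2, the decoy receptor of interleukin 1, went from 0.15, 0.07 and 0.16 to 1.25, 1.4 and 2.37 RPKM (1.22 ± 0.17, adjusted p = 2.54e-05). IL15RA, which presents interleukin 15, went from 3.71 ± 0.80 to 9.05 ± 0.95 RPKM (1.10 ± 0.12). The interferon receptor chains IFNGR2 and IFNAR2 fell, IFNGR2 from 53.8 ± 1.94 to 37.6 ± 0.74 RPKM (-0.51 ± 0.043) and IFNAR2 from 11.4 ± 0.62 to 7.76 ± 0.68 RPKM (-0.50 ± 0.089). IFNAR1, chosen after its values were seen, read 27.1, 25.01 and 25.6 RPKM untreated and 21.6, 25.1 and 21.7 RPKM treated and was not called (-0.18 ± 0.077, adjusted p = 0.0736).

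Of 26 genes of the NF-kappaB pathway 10 rose and 2 fell (15 and 2 after scaling), none by 2-fold. TNFAIP3, the feedback deubiquitinase of the pathway, went from 2.46 ± 0.59 to 4.64 ± 0.64 RPKM (0.71 ± 0.16) and the kinase RIPK1 from 6.15 ± 0.22 to 9.03 ± 0.22 RPKM (0.49 ± 0.074). IKBKB, which encodes the kinase IKK beta, fell by 0.44 and MAP3K14 by 0.37 on the log2 scale. Among 42 cell death genes 19 rose and 7 fell (20 and 5 after scaling). CASP1, the caspase that cuts interleukin 1 beta, read 32.5, 32.4 and 33.7 RPKM untreated and 74.8, 80.3 and 87.1 RPKM at 12 h (1.27 ± 0.065, adjusted p = 2.48e-10). MLKL, the pore-forming protein of necroptosis, read 11.9, 11.9 and 10.9 RPKM untreated and 28.7, 27.1 and 25.2 RPKM treated (1.15 ± 0.078, adjusted p = 9.67e-09). TNFRSF10D, a decoy receptor of the death ligand TRAIL, fell from 15.9, 16.4 and 17.5 to 5.84, 5.38 and 5.85 RPKM (-1.40 ± 0.058, adjusted p = 1.16e-11). Unlike MLKL, which was back at 12.8 ± 0.65 RPKM at 48 h, TNFRSF10D was still at 6.61 ± 0.22 RPKM.

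Among keratins KRT75, KRT6B and KRT6C rose over 2-fold. KRT15, a basal keratin, fell by just over 2-fold, and by less than that after scaling (-0.96). Of 19 keratins tested 8 rose and 3 fell (8 and 1 after scaling). KRT6B, a keratin of wounded and activated epidermis, read 56.1, 58.9 and 59.5 RPKM untreated and 309, 284 and 307 RPKM at 12 h (2.35 ± 0.076, adjusted p = 3.29e-13). KRT75, a keratin of the hair follicle companion layer, read 0.63, 0.54 and 0.61 RPKM untreated and 7.22, 7.36 and 7.91 RPKM treated (2.41 ± 0.11, adjusted p = 5.98e-11). KRT6C read 2.33, 2.76 and 2.44 RPKM untreated and 10.1, 10.7 and 11.98 RPKM treated (1.76 ± 0.094, adjusted p = 3.89e-10). KRT6A, far more abundant, read 3872, 4151 and 4025 RPKM untreated and 6681, 6645 and 6929.5 RPKM treated (0.75 ± 0.046, adjusted p = 2.59e-09). KRT6A, KRT6B and KRT6C are near-identical copies, so the authors' counting could have moved reads between them, and the separate values are uncertain. Their frequent partners KRT17 (0.56 ± 0.066) and KRT16 (0.33 ± 0.082) also rose. KRT15 fell from 757, 569 and 653 to 322, 292 and 328 RPKM (-1.06 ± 0.17, adjusted p = 8.81e-05) and stayed at 323 ± 56.8 RPKM at 48 h. Of the basal pair, KRT14 read 6671 ± 245 and 6243 ± 109 RPKM and was not called (-0.10 ± 0.054, adjusted p = 0.168). KRT5 fell by 0.17 on the log2 scale, a call that median-of-ratios scaling removed.

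**Figure D3:**
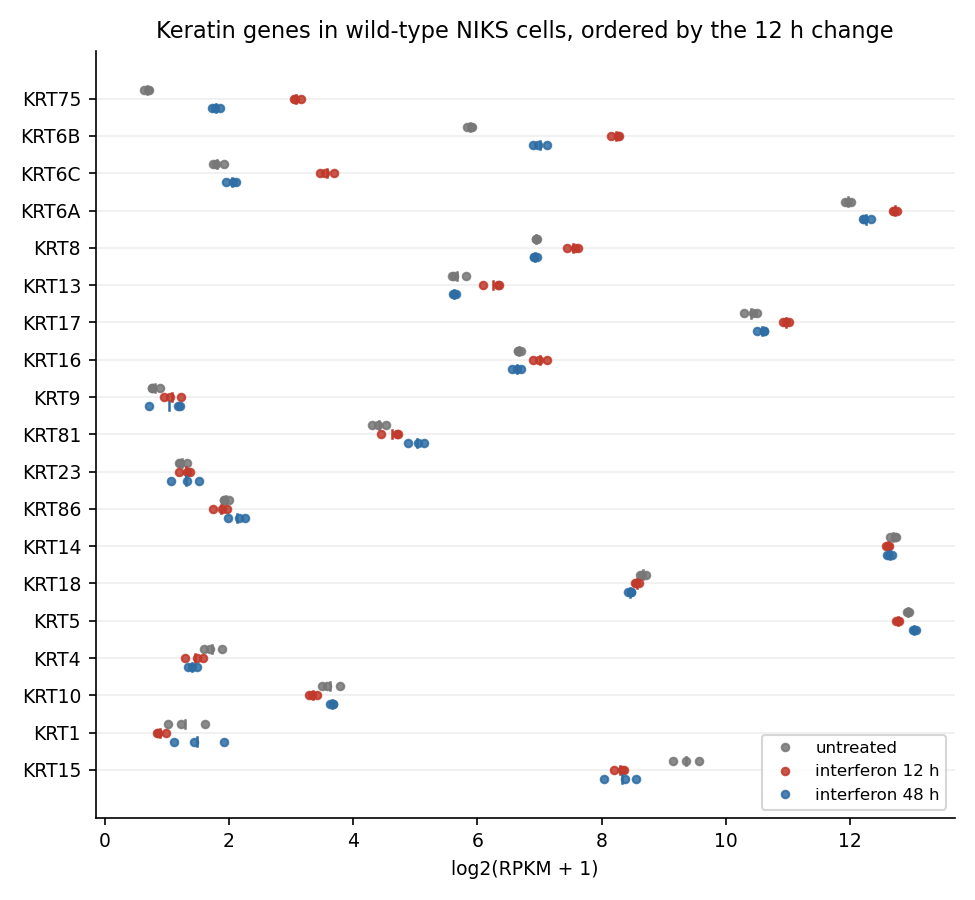
Each point is 1 wild-type library and each short bar a mean of 3, for the 19 keratins tested, on a log2(RPKM + 1) axis, ordered from the largest rise to the largest fall at 12 h. KRT75, KRT6B, KRT6C and KRT6A are higher at 12 h (red) than untreated (grey) and KRT15 is lower. The KRT6 genes are near-identical copies whose reads may be split.

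Of 44 genes of the cornified envelope and late differentiation 20 rose and 6 fell (21 and 3 after scaling), with a median of 0.18. SPRR2D, a small proline-rich envelope protein, read 8.7, 8.98 and 9.02 RPKM untreated and 32.95, 28.3 and 34.4 RPKM at 12 h (1.73 ± 0.13, adjusted p = 4.41e-08). SPRR2A read 1.34, 1.3 and 1.16 RPKM untreated and 5.25, 4.28 and 3.17 RPKM treated (1.19 ± 0.16, adjusted p = 2.38e-05). The SPRR2 genes are close copies too, with the same doubt. SERPINB7, an epidermal protease inhibitor, fell from 46.2 ± 1.41 to 24.7 ± 3.36 RPKM (-0.88 ± 0.11), and the kallikrein KLK8 from 91.8 ± 9.41 to 68.6 ± 2.34 RPKM (-0.41 ± 0.084). PPL, which encodes the envelope protein periplakin and was chosen after its values were seen, fell from 29.2, 24.8 and 27.4 to 12.4, 11.5 and 11.7 RPKM (-1.13 ± 0.10, adjusted p = 1.42e-07).

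Of 34 basal and hemidesmosome genes 9 rose and 7 fell, and 13 and 6 after scaling, which turned the median from -0.024 to 0.071. THBS1, the matrix protein thrombospondin 1, read 119.99, 135 and 129 RPKM untreated and 248, 249 and 255 RPKM treated (0.96 ± 0.054, adjusted p = 8.9e-10). TNC, the wound matrix protein tenascin C, read 18.01, 18.5 and 17.1 RPKM untreated and 31.8, 32.6 and 33.7 RPKM treated (0.84 ± 0.066, adjusted p = 6.49e-08). At 48 h they had parted, THBS1 at 273 ± 22.9 RPKM and TNC at 10.1 ± 1.14 RPKM. Among the keratinocyte markers COL17A1 (0.55 ± 0.039), LAMB3 (0.49 ± 0.073), DSP (0.29 ± 0.057), SFN (0.27 ± 0.054) and DSG3 (0.21 ± 0.053) also rose. PKP1 rose by 0.15 ± 0.048, a call lost without the first treated (adjusted p = 0.0577), the third treated (0.0684) or the second untreated library (0.0661). TP63 (0.073 ± 0.035), CDH1 (0.13 ± 0.052), ITGB4 (-0.019 ± 0.081) and EPCAM (-0.11 ± 0.063) were not called, and TP63 and CDH1 were called higher after scaling. Of 29 junction genes 11 rose and 4 fell (14 and 1 after scaling). The connexin genes GJB5 (36.95 ± 1.95 to 59.4 ± 1.26 RPKM) and GJB2 (156 ± 10.3 to 244 ± 6.88 RPKM) rose, and CLDN1, a tight junction claudin, fell from 9.13 ± 1.11 to 5.84 ± 0.29 RPKM.

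Genes of glycolysis and the hypoxia response rose more often than they fell. Of 42 tested 25 rose and 7 fell (28 and 6 after scaling), with a median of 0.26. SLC2A1, the glucose transporter GLUT1, read 96.4, 93.97 and 98.6 RPKM untreated and 232, 217 and 232 RPKM at 12 h (1.23 ± 0.049, adjusted p = 5.45e-12). EGLN3, a prolyl hydroxylase that marks hypoxia-inducible factor for decay, read 1.87, 1.54 and 1.63 RPKM untreated and 7.05, 7.19 and 7.42 RPKM treated (1.62 ± 0.13, adjusted p = 7.9e-08). CA9, a surface carbonic anhydrase known from hypoxic cells, read 3.51, 2.99 and 4.13 RPKM untreated and 11.2, 11.2 and 10.7 RPKM treated (1.41 ± 0.14, adjusted p = 6.11e-07). HIF1A, the hypoxia-inducible factor itself, chosen after its values were seen, fell from 107 ± 5.597 to 85.7 ± 2.93 RPKM (-0.32 ± 0.048). The largest falls were PDK2, a kinase of pyruvate dehydrogenase (7.98 ± 0.72 to 3.83 ± 0.42 RPKM), and PFKM, the muscle type phosphofructokinase (54.9 ± 1.91 to 37.9 ± 2.41 RPKM). At 48 h SLC2A1 read 112 ± 6.05 RPKM and EGLN3 2.61 ± 0.76 RPKM.

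Cytosolic chaperones also rose more often than they fell: of 37 tested 23 rose and 1 fell (27 and 0 after scaling). HSPA1A, the inducible HSP70, read 73.1, 81.98 and 77.7 RPKM untreated and 190.2, 172 and 173 RPKM treated (1.19 ± 0.072, adjusted p = 2.27e-09), with the caution that HSPA1B is a near-identical copy. DNAJA1, an HSP40 that works with HSP70, read 216, 227 and 223 RPKM untreated and 433, 475 and 446 RPKM treated (1.02 ± 0.054, adjusted p = 3.64e-10). The fall was HSPB1 (-0.19 ± 0.062), and it was not called after scaling. Its call was also lost without the second treated (adjusted p = 0.126) or without the first untreated (0.0574) or the third untreated library (0.083). The endoplasmic reticulum and stress list was divided, with 14 of 35 genes higher and 10 lower (15 and 8 after scaling). HSPA5, the main chaperone of the endoplasmic reticulum, rose from 249.6, 258 and 255 to 422, 446 and 425 RPKM (0.76 ± 0.045, adjusted p = 1.95e-09), and SDF2L1 from 17.01 ± 1.23 to 27.1 ± 2.01 RPKM. NUPR1, a small stress-induced chromatin protein, fell from 15.6, 10.3 and 14.2 to 4.15, 5.5 and 5.99 RPKM (-1.20 ± 0.17, adjusted p = 3.06e-05). The list's median of -0.054 became 0.032 with scaling and 0.007 without the third untreated library.

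Genes that build ribosomes and genes that encode their proteins moved in opposite directions. Of 56 genes of ribosome biogenesis and RNA polymerase I 35 rose and 2 fell (43 and 1 after scaling), with a median of 0.19. POLR1G, a subunit of RNA polymerase I, read 15.9, 15.5 and 15.7 RPKM untreated and 23.8, 24.96 and 23 RPKM treated (0.58 ± 0.093, adjusted p = 0.000123). NOL6, a nucleolar protein of small subunit assembly, read 73.7, 79.9 and 76.8 RPKM untreated and 107, 107 and 108 RPKM treated (0.48 ± 0.053, adjusted p = 3.17e-06). In both genes every treated library lay above every untreated one. Of 84 cytosolic ribosomal protein genes 0 rose and 72 fell, with a median of -0.24. After scaling 1 rose and 57 fell, with a median of -0.14. RPL13A, of the large subunit, went from 1655, 1624 and 1606 to 1156, 1168 and 1185 RPKM (-0.48 ± 0.032, adjusted p = 9.23e-09), and RPL39L from 27.6 ± 0.50 to 19.3 ± 1.76 RPKM (-0.49 ± 0.074). Such genes have many processed pseudogenes that could share reads. In the knockout line 38 biogenesis genes rose and 2 fell, and 77 ribosomal protein genes fell.

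Translation factors and tRNA synthetases split, with 19 of 61 higher and 29 lower (22 and 16 after scaling). WARS1, the tryptophan tRNA synthetase, a known interferon target, read 119, 117 and 119 RPKM untreated and 246, 254 and 260.4 RPKM treated (1.09 ± 0.038, adjusted p = 9.14e-13). EIF4B, a helper of the cap-binding helicase, read 291, 284 and 289 RPKM untreated and 178, 172 and 170.5 RPKM treated (-0.73 ± 0.044, adjusted p = 2.39e-09), and EIF3L fell from 348 ± 22.01 to 239.9 ± 12.9 RPKM. Nuclear genes of the respiratory chain were mostly lower: 64 of 80 were lower and 1, NDUFA9, was higher, with a median of -0.24. After scaling 43 were lower and 1 higher. UQCRC1, a core subunit of complex III, read 351, 394 and 352 RPKM untreated and 228, 270.4 and 275 RPKM treated (-0.51 ± 0.073, adjusted p = 4.39e-05). Mitochondrial ribosomal protein genes were divided, with 12 of 76 higher and 17 lower. Scaling made this 20 and 5 and turned the median from -0.034 to 0.060. MRPS17 rose from 22.9 ± 0.51 to 39.7 ± 2.88 RPKM, and MRPL33 fell from 143 ± 4.12 to 101 ± 2.29 RPKM.

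**Figure D4:**
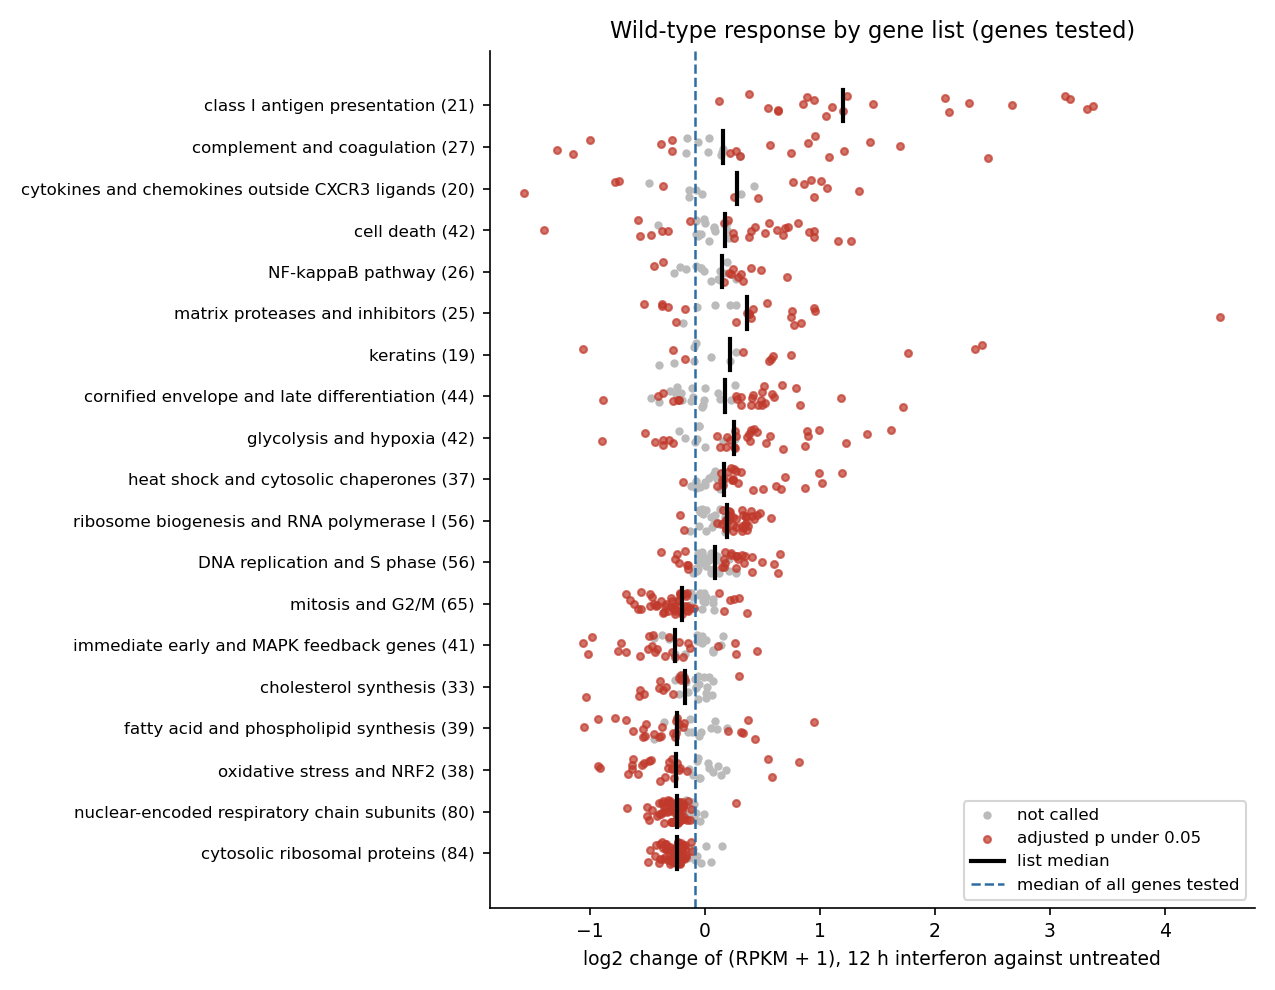
Each point is 1 gene of a list, placed by its log2 change of (RPKM + 1) at 12 h in wild-type cells and red where its adjusted p was under 0.05. Black bars are list medians, the dashed line is the median of all 13280 genes (-0.086), and numbers in brackets are genes tested. The medians of the ribosome biogenesis (0.19) and cytosolic ribosomal protein (-0.24) lists lie on opposite sides of the dashed line.

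DNA replication genes rose more often than they fell, and mitotic genes fell more often than they rose. Of all genes tested 15.1% rose and 29.8% fell (21.8% and 20.5% after scaling). Of 56 DNA replication genes 20 rose and 8 fell (26 and 1 after scaling). ORC1, of the origin recognition complex, read 12.5, 11.9 and 11.8 RPKM untreated and 19.4, 19.7 and 19.4 RPKM treated (0.65 ± 0.041, adjusted p = 3.51e-09), and CLSPN, which encodes the checkpoint mediator claspin, went from 10.7 ± 0.59 to 17.3 ± 1.05 RPKM. Of 65 genes of mitosis and G2/M 6 rose and 42 fell, and 7 and 25 after scaling. CDC25C, the phosphatase that starts mitosis, read 8.4, 9.46 and 10.1 RPKM untreated and 4.56, 5.64 and 6.13 RPKM treated (-0.68 ± 0.10, adjusted p = 3.04e-05), and SPC24, a kinetochore subunit, fell from 22.6 ± 1.52 to 14.1 ± 2.24 RPKM. MKI67, chosen after its values were seen, was at 33.6, 29.8 and 31.6 RPKM untreated and 29.1, 27.03 and 29.5 RPKM treated (-0.14 ± 0.056, adjusted p = 0.0494). Its groups lay close together, and the call was lost without the first treated (adjusted p = 0.0665), the second treated (0.189), the first untreated (0.206) or the third untreated library (0.0965) and after scaling (0.494). ZMAT3, an RNA-binding protein, fell from 13.8, 13.1 and 14.1 to 4.25, 4.03 and 4.31 RPKM (-1.50 ± 0.073, adjusted p = 1.21e-10). The ubiquitin ligase gene MDM2 (149 ± 7.33 to 94.9 ± 1.47 RPKM) and CDKN1A, an inhibitor of cyclin-dependent kinases (160.4 ± 5.43 to 139 ± 3.93 RPKM) were added after their values were seen. Both fell, and the CDKN1A call was lost after scaling (-0.106, adjusted p = 0.0669). Replication-dependent histone genes, whose RNA has no poly(A) tail, had 2 of 9 higher (3 after scaling), both with calls lost under other settings.

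Genes of growth factor signalling fell more often than they rose, as all genes tested did before scaling (29.8% lower and 15.1% higher). After scaling 20.5% of all genes were lower and 21.8% higher. Of 41 immediate early and MAPK feedback genes 4 rose and 21 fell (6 and 15 after scaling). EGR1, an immediate early transcription factor, read 146, 148 and 161 RPKM untreated and 77.9, 63.5 and 75.6 RPKM treated (-1.06 ± 0.087, adjusted p = 1e-07). CCN1, a matricellular protein, read 92.7, 102 and 113 RPKM untreated and 49.7, 50.6 and 50.2 RPKM treated (-1.01 ± 0.076, adjusted p = 3.61e-08). KLF5, a transcription factor of dividing epithelium, rose from 47.6 ± 1.82 to 65.7 ± 1.54 RPKM (0.46 ± 0.053). Of 25 genes of the EGFR family and its ligands 4 rose and 11 fell (6 and 10 after scaling). Among ligands, EPGN rose from 2.78 ± 0.63 to 6.203 ± 0.54 RPKM and NRG1 from 21.6 ± 2.75 to 30.04 ± 0.52 RPKM, while HBEGF fell from 10.7 ± 3.41 to 5.83 ± 1.34 RPKM. LRIG1, a negative regulator of the receptor, fell from 3.51 ± 0.28 to 1.51 ± 0.39 RPKM.

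The Wnt and Hippo list had 6 of 37 genes higher and 18 lower (7 and 12 after scaling). FZD8, a Wnt receptor, rose from 2.14, 2.25 and 2.05 to 5.49, 5.52 and 5.81 RPKM (1.07 ± 0.087, adjusted p = 9.21e-08), while the receptor FZD2 fell from 3.01 ± 0.067 to 1.57 ± 0.27 RPKM and the transcription factor TCF7L2 from 10.2 ± 1.73 to 5.45 ± 0.71 RPKM. The Notch list had 4 of 27 (14.8%) higher and 9 (33.3%) lower, against 15.1% and 29.8% of all genes tested (4 and 6 after scaling). HES4, a repressor of the HES family, rose from 0.33, 0.74 and 0.32 to 3.08, 3.16 and 2.53 RPKM (1.43 ± 0.16, adjusted p = 3.53e-06), and NRARP, a Notch feedback gene, fell from 2.32 ± 0.16 to 1.3 ± 0.20 RPKM. In the TGF-beta and BMP list 9 of 30 rose and 5 fell (10 and 2 after scaling), with a median near 0 whose sign depended on the setting. ID2, a dominant-negative helix-loop-helix protein, read 1.6, 0.42 and 1.9 RPKM untreated and 4.4, 5 and 4.9 RPKM treated (1.39 ± 0.26, adjusted p = 0.000423). INHBA, which encodes the activin A subunit, fell from 11.1, 13.2 and 12.4 to 7.56, 8.41 and 9.12 RPKM (-0.50 ± 0.073, adjusted p = 5.05e-05).

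Lipid genes fell more often than they rose, as all genes tested did before scaling (29.8% lower and 15.1% higher). After scaling 20.5% of all genes were lower and 21.8% higher. Of 33 cholesterol synthesis genes 1 rose and 14 fell (3 and 9 after scaling). Of 39 fatty acid and phospholipid genes 6 rose and 21 fell (8 and 15 after scaling). FADS3, of the fatty acid desaturase family, fell from 27.4, 25.7 and 25.97 to 10.7, 13.5 and 12.6 RPKM (-1.05 ± 0.084, adjusted p = 7.3e-08). ACSL5, an acyl-CoA synthetase, rose from 0.68 ± 0.061 to 2.24 ± 0.15 RPKM and PCYT1A, of phosphatidylcholine synthesis, from 31.7 ± 1.79 to 43.1 ± 1.29 RPKM. Of 35 amino acid, tryptophan and NAD genes 3 rose and 18 fell (6 and 14 after scaling). NNMT, which methylates nicotinamide, fell from 18.6, 17.9 and 14.1 to 6.29, 5.88 and 5.18 RPKM (-1.39 ± 0.16, adjusted p = 5.03e-06), and was back at 16.4 ± 2.94 RPKM at 48 h. SRM, spermidine synthase, and GCH1, of biopterin synthesis, rose by 0.36 each on the log2 scale.

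The antioxidant list was mostly lower: 3 of 38 genes rose and 23 fell (5 and 18 after scaling). GCLC, which catalyses the first step of glutathione synthesis, read 71.5, 70.9 and 75.1 RPKM untreated and 32.6, 38.9 and 42.98 RPKM treated (-0.92 ± 0.10, adjusted p = 2.24e-06). AKR1B10, an aldo-keto reductase, read 47.3, 36.8 and 41.1 RPKM untreated and 21.8, 20.9 and 21.4 RPKM treated (-0.93 ± 0.14, adjusted p = 7.27e-05). NFE2L2, which encodes the regulator NRF2 and was chosen after its values were seen, fell from 53.3 ± 1.82 to 43.5 ± 1.73 RPKM (-0.29 ± 0.051). GPX2, an epithelial glutathione peroxidase, went against the list, from 4.16 ± 0.55 to 8.12 ± 0.68 RPKM. Of 15 metal genes 4 rose and 7 fell (4 and 6 after scaling). TFRC, the transferrin receptor, rose from 30.6, 31.02 and 30.04 to 55.95, 59.5 and 55.05 RPKM (0.87 ± 0.053, adjusted p = 2.05e-09), while the metallothionein MT1X fell from 538, 465 and 459 to 288, 304 and 304 RPKM (-0.70 ± 0.058, adjusted p = 1.18e-07). Among 188 solute carriers 41 (21.8%) rose and 55 (29.3%) fell, against 15.1% and 29.8% of all genes tested (52 and 46 after scaling). SLC25A28, a mitochondrial iron carrier, rose from 19.1 ± 3.06 to 39.3 ± 5.902 RPKM. SLC7A8, a neutral amino acid exchanger, fell from 28.4 ± 0.075 to 11.9 ± 0.41 RPKM and SLC16A5, a monocarboxylate carrier, from 4.03 ± 0.28 to 1.34 ± 0.18 RPKM.

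Among autophagy and lysosome genes the largest rises were those of proteases. Of 54 autophagy and lysosome genes 8 rose and 26 fell (12 and 13 after scaling). CTSC, a protease that activates granule enzymes, read 162, 164 and 166 RPKM untreated and 486, 503 and 479 RPKM treated (1.57 ± 0.046, adjusted p = 8.69e-14), and CTSS, a protease of antigen processing, 0.11, 0.22 and 0.11 RPKM untreated and 1.42, 1.46 and 1.39 RPKM treated (1.08 ± 0.14, adjusted p = 1.79e-05). CTSS was under 1 RPKM in wild type at 48 h (0.49, 0.08 and 0.44 RPKM) and in the treated knockout libraries at 12 h (0.37, 0.39 and 0.68 RPKM). Its 3 treated wild-type libraries were thus enough to admit it to the test, where it could hardly have been called lower. GABARAPL1, an autophagosome protein, fell from 8.16, 6.49 and 6.56 to 3.77, 3 and 1.81 RPKM (-1.09 ± 0.22, adjusted p = 0.000699). CD68 read 18.6, 19.97 and 19.9 RPKM untreated and 51.4, 56.7 and 50.5 RPKM treated (1.39 ± 0.074, adjusted p = 3.89e-10), and CD14 5.77, 4.14 and 5.37 RPKM untreated and 2.56, 2.11 and 2.52 RPKM treated (-0.84 ± 0.17, adjusted p = 0.000792). Of 4 class II presentation genes 3, CTSS among them, rose and 1, HLA-DOB, fell (3 and 1 after scaling). The HLA-DOB call was lost without the third treated (adjusted p = 0.0556) or the third untreated library (0.0733). Among 55 ubiquitin pathway genes 12 (21.8%) rose and 18 (32.7%) fell, against 15.1% and 29.8% of all genes tested. After scaling 16 rose and 12 fell, with the median going from -0.043 to 0.052. RNF31, of the linear ubiquitin ligase, rose from 18.2 ± 1.401 to 27.6 ± 1.48 RPKM, and FBXO32, the muscle ligase atrogin 1, fell from 5.49 ± 0.57 to 1.93 ± 0.26 RPKM (-1.15 ± 0.15).

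RNA decay and double-stranded RNA genes had 17 of 52 higher and 10 lower (27 and 7 after scaling). REC8, a meiotic cohesin subunit placed on that list, read 0.46, 1.1 and 0.76 RPKM untreated and 5.04, 4.22 and 6.11 RPKM treated (1.79 ± 0.23, adjusted p = 1.18e-05). PRKRA, an activator of the kinase PKR, fell from 28.8, 22.7 and 26.6 to 12.6, 13.2 and 12.4 RPKM (-0.97 ± 0.086, adjusted p = 2.31e-07), and STAU2, a double-stranded RNA binding protein, from 36.3 ± 0.97 to 20.6 ± 2.39 RPKM. Of 43 chromatin silencing genes 6 (14%) rose and 14 (32.6%) fell, against 15.1% and 29.8% of all genes tested (9 and 7 after scaling). SMCHD1 rose from 17.8 ± 1.08 to 29.5 ± 2.05 RPKM and the histone chaperone HIRA from 15.1 ± 2.05 to 20.4 ± 0.49 RPKM, while the deacetylase HDAC5 fell from 3.85 ± 0.66 to 1.93 ± 0.26 RPKM. Among 16 clock genes 2 rose and 7 fell (3 and 5 after scaling). BMAL1 rose by 0.26 and BMAL2 by 0.57 on the log2 scale, and DBP, a clock output factor, fell from 3.57 ± 0.37 to 1.11 ± 0.31 RPKM (-1.12 ± 0.18). Mitochondrial dynamics and import had 8 of 38 higher and 9 lower (10 and 6 after scaling), with PINK1 lower by -0.54 ± 0.059. HOX genes had 1 of 17 higher and 4 lower (2 and 2 after scaling), and ZNF zinc finger genes 40 and 55 of 386 (62 and 35 after scaling).

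The knockout line gave a second reading of the same treatment in libraries of its own. The tests of both lines shared the same gene filter and the same estimate of each gene's spread. SP100 itself read 15.97, 14.2 and 15.2 RPKM in untreated knockout libraries and 30.1, 31.9 and 27.9 RPKM in untreated wild type, so its RNA was lower but present in the line labelled knockout. In that line 2123 genes (16.0%) rose and 4362 (32.8%) fell at 12 h. Of the 110 genes that rose at least 2-fold in wild type outside the interferon lists, 105 (95.5%) also rose there and 90 did so by 2-fold (1.75% of all genes tested did). The median change over the 110 was 1.35 in wild type and 1.34 in the knockout line. Of the 122 that fell at least 2-fold, 111 (91%) also fell and 76 by 2-fold (1.16% of all genes tested did), with medians of -1.16 and -1.13. All 15 leading rises and 13 of the 15 leading falls passed 2-fold in the knockout line. MMP13 went from 0.06, 0.05 and 0.13 to 18.8, 15.7 and 17.1 RPKM there, PADI3 from 32.9, 28.2 and 30.7 to 3.72, 4.6 and 3.79 RPKM and NGFR from 8.79, 7.59 and 9.65 to 1.03, 1.19 and 1.02 RPKM. Among the genes chosen only because they stood apart, ENSG00000235398 (no symbol) changed by -0.29 and LINC00106 by 0.14 in the knockout line, opposite in sign to wild type and not called. The wild-type call of LINC00106 was lost without the second treated (adjusted p = 0.07) or the first untreated library (0.0558).

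**Figure D5:**
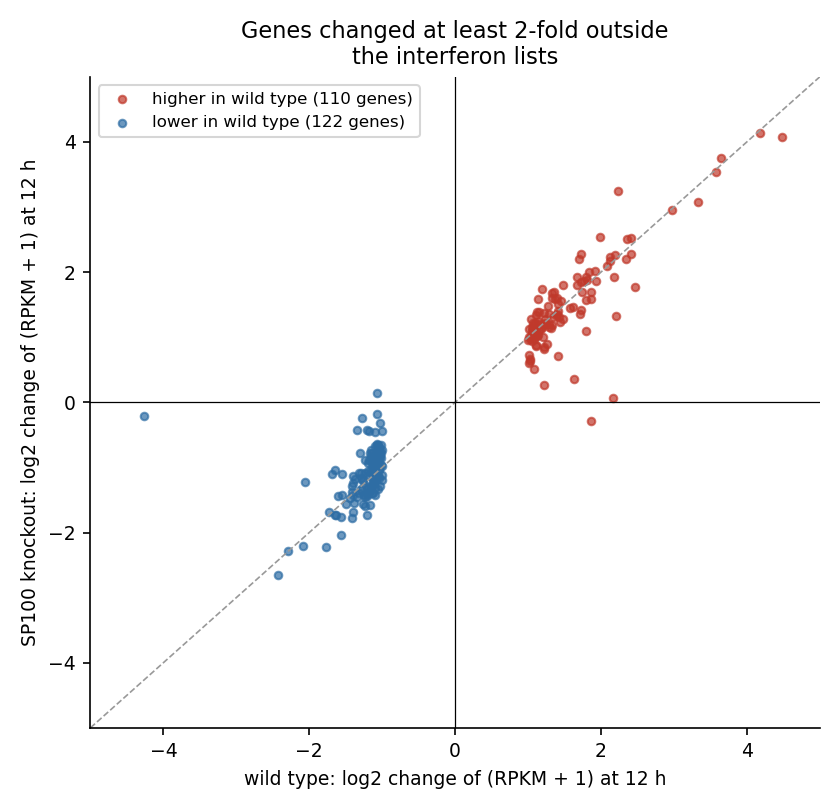
Each point is 1 of the 232 genes outside the interferon lists that changed at least 2-fold in wild type (110 higher in red, 122 lower in blue), with the wild-type change on the horizontal and the knockout change on the vertical axis, both as log2 changes of (RPKM + 1). The genes were chosen by their wild-type change, but the gene filter and the spread behind its test came from all 18 libraries, knockout included. Most points lie near the dashed line of equal change. The blue point at the far left is SNORA40.

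The response itself was compared between the lines by an interaction test, which called 10 genes (0.0753%), all with a larger value in the knockout line. Of these 8 were classical interferon genes. None of the 110 rises outside the lists and 1 of the 122 falls was called: IGF2, an insulin-like growth factor, named for that reason. IGF2 read 3.69, 3.37 and 3.24 RPKM untreated and 0.91, 1.38 and 1.09 RPKM at 12 h in wild type (-1.06 ± 0.11, adjusted p = 1.23e-06), and 0.34, 0.29 and 0.45 and 0.14, 0.21 and 0.27 RPKM in the knockout line. IGF2 was under 1 RPKM in all of those knockout libraries before treatment. INHBA, from the TGF-beta list, was the other call outside the classical genes: it read 7.45, 6.96 and 7.99 and 8.47, 7.71 and 7.95 RPKM in the knockout line (0.10, adjusted p = 0.299). The interaction was called for IGF2 in 3 of 18 alternatives and for INHBA in 7 of 19.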

How the data were processed

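RNA was sequenced from NIKS keratinocytes with a stranded mRNA kit, per the labels' protocols. The authors deposited 1 table of RPKM values for 16472 Ensembl gene IDs in 18 libraries, rounded to 2 decimals. The submitters' processing notes name cutadapt, STAR 2.6.1, RSEM 1.3.0, limma 3.50.3 and the build hg19, without their roles, and the counting rule and the gene filter are not given in the sources used here. Because RPKM values are not counts, no count model was used.

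Values were transformed to log2(RPKM + 1). The 13280 genes that reached 1 RPKM in 3 or more libraries entered a cell-means model of all 18 libraries in limma 3.58.1 under R 4.3.3, with a mean trend in the variances and two-sided moderated tests. P-values were adjusted by Benjamini-Hochberg per comparison, with a threshold of 0.05, and a second rule asked for 2-fold. The comparisons were 12 h against 0 h in each line, their difference, and 48 h against 12 h in wild type. The labels call the replicates biological, with no further detail, so p-values measure the spread between these libraries. Symbols matched 14576 IDs and 12401 genes tested. Gene types came from GENCODE 29 by ID. Relative depth was read from the spacing of low values of 522 genes, with 81.7% of pairs of libraries within 3% of the fit. The model was tested on simulated data.

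Genes named were, outside the classical and class I lists, the 15 largest rises and 15 largest falls past 2-fold with a symbol and no overlap between groups. Within each of 50 lists and symbol families they were up to 4 genes past 2-fold per direction, or else up to 2 called. Keratinocyte markers were always eligible. Others are said to be chosen after their values were seen. Some genes the rule names, and 1 list, are not reported here. The members and lists were chosen with earlier results of these data known. Pseudogene symbols were dropped from the ribosomal, respiratory and keratin families after values were seen. Alternatives were a pseudocount of 0.1, no filter, a mean of at least 5 RPKM, median-of-ratios scaling, the libraries of the comparison alone, no variance trend, a block for replicate number, and each library left out in turn.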

Additional observations from a re-analysis of the deposited data

Results flagged for a closer look

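The response to 12 h of interferon differed between the lines, by the interaction test in limma, for 3 of the genes named. For MX1, an antiviral GTPase, the response in the knockout line was larger by 0.581 on the log2 scale (adjusted p = 0.000311), from 0.22, 0.28 and 0.17 to 812, 804 and 808 RPKM there and from 0.41, 0.22 and 0.32 to 577, 575 and 588 RPKM in wild type. Its call was lost with a pseudocount of 0.1 (adjusted p = 0.133) and kept in the other 18 alternatives. For INHBA the difference was 0.595 (adjusted p = 0.0458), with adjusted p between 0.0222 and 0.202 over 19 alternatives, 12 of which lost the call. For IGF2 the difference was 0.892 (adjusted p = 0.0458), with adjusted p between 0.00193 and 0.753 over 18 alternatives, 15 of which lost it. IGF2 was under 1 RPKM in every untreated knockout library.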

How the results depend on the processing

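Counts of higher and lower genes stayed within 1.5 times their values in every alternative run, apart from the counts past 2-fold and the interaction. With a pseudocount of 0.1 the genes that fell at least 2-fold went from 122 to 387 and the rises outside the interferon lists from 110 to 188, and with a mean of at least 5 RPKM they went to 64 and 56. The interaction calls went from 10 to 6 on the libraries of the comparison alone and ranged from 6 to 9 with each library left out, 6 without the third treated, the first untreated or the second untreated knockout library. With each library left out the wild-type counts ranged from 1704 to 1787 higher and 3348 to 3608 lower, 218 to 227 and 122 to 150 at least 2-fold. With median-of-ratios scaling the rises outside the lists numbered 142 and the falls 94. List medians changed sign with this scaling for basal (0.071), integrated stress (0.032), ubiquitin (0.052), mitochondrial dynamics (0.075), mitochondrial ribosomal (0.060), ZNF (0.039) and solute carrier (0.017) genes. With a mean of at least 5 RPKM they changed sign for cytokines (-0.219), TGF-beta (-0.003) and circadian (0.063) genes. With each library left out the median ranged from -0.081 to 0.007 for integrated stress genes, highest without the third untreated library, and from -0.040 to 0.077 for TGF-beta genes, lowest without the third treated library. The cause was not tested. Of 211 named genes called, 19 lost their call in some alternative and none changed direction, in 2685 pairs of gene and alternative. Genes under about 2 RPKM rest on few reads, and their fold depends on the pseudocount.

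With the replicate number as a block, 1934 genes were higher and 3863 lower in wild type, 218 and 122 at least 2-fold, and the interaction called 7. Deviations of same-numbered libraries from their group means correlated at -0.028, 0.08 and -0.05. Such low values cannot decide whether same-numbered libraries were prepared together. Among 9 pairings the highest correlation, 0.1, was between differently numbered libraries.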

Other observations

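Several genes in no list passed 2-fold and are given here as values, chosen after they were seen. ANGPTL4, a secreted inhibitor of lipoprotein lipase, read 22.9, 23.9 and 23.8 RPKM untreated and 79.96, 84.2 and 89.5 RPKM at 12 h (1.80 ± 0.11, adjusted p = 2.59e-09 in limma), and was back at 26.4, 16.96 and 21.6 RPKM at 48 h. LAP3, a leucine aminopeptidase, read 42.5, 40.1 and 41.4 RPKM untreated and 138, 142 and 142 RPKM at 12 h (1.74 ± 0.036, adjusted p = 6.9e-16), and 106, 107 and 109 RPKM at 48 h. NT5E, the surface enzyme CD73 that makes adenosine, went from 55.03 ± 1.61 to 131 ± 5.38 RPKM (SD, n = 3), CMTR1, a cap methyltransferase, from 13.8 ± 0.65 to 38.5 ± 1.805 RPKM, and UNC93B1, which carries Toll-like receptors to endosomes, from 14.3 ± 0.81 to 38.4 ± 4.77 RPKM. CYP2J2, an epoxygenase of arachidonic acid, went from 0.48 ± 0.18 to 4.66 ± 0.089 RPKM. Among falls, TSC22D3 and ZBTB16, both known as glucocorticoid-induced genes, went from 42.4, 31.4 and 40.4 to 15.4, 12.3 and 18.4 RPKM and from 6.31, 5.2 and 5.51 to 1.65, 1.43 and 1.41 RPKM, in a medium with hydrocortisone in all groups. TP73, a transcription factor, went from 5.597 ± 0.22 to 1.72 ± 0.39 RPKM, and the RNAs MIR205HG from 166 ± 9.98 to 80.4 ± 4.77 RPKM, H19 from 42.4 ± 3.95 to 19.7 ± 2.3 RPKM and DANCR from 64.3 ± 2.09 to 29.1 ± 0.22 RPKM. DANCR was lower again at 48 h, at 21.6 ± 1.87 RPKM.

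MT-RNR1, the RNA of the small mitochondrial ribosomal subunit, read 329.6, 391 and 318 RPKM untreated and 1234, 929 and 1159 RPKM at 12 h in wild type (1.67 ± 0.13, adjusted p = 5.55e-08). It read 476, 391 and 326 RPKM at 48 h, and 296, 332 and 292 and 1166, 1195 and 1134 RPKM without and with 12 h of interferon in the knockout line. MT-RNR2, from the same transcript, read 2180.1, 2201 and 2043 RPKM untreated and 2887, 2132 and 2688 RPKM at 12 h and was not called (0.25 ± 0.13, adjusted p = 0.127), but it was called higher after median-of-ratios scaling (0.35, adjusted p = 0.0424). In the knockout line MT-RNR2 read 1619, 1677 and 1725 RPKM untreated and 2463, 2421 and 2240.2 RPKM at 12 h and rose (0.50, adjusted p = 0.00434). In wild type no RNA encoded in mitochondria other than MT-RNR1 was called higher before scaling, and several messenger RNAs were called lower. Among these MT-ND4L (-0.70 ± 0.18), MT-ND4 (-0.69 ± 0.18) and MT-CO3 (-0.64 ± 0.17) were also called lower after scaling. How the mRNA kit sampled the ribosomal RNAs was not tested.

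TAF1D, which hosts SNORA40 in its introns, read 89.1, 92.2 and 90.1 RPKM untreated and 93.7, 86.8 and 94.2 RPKM at 12 h and was not called (0.017 ± 0.070, adjusted p = 0.871).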
